A study of Mus musculus with 8 samples.

Results

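The genes described here are Etv5, Dusp5, Spred1, Spred2 and Plaur, 5 of the 12193 gene loci with a value in every library, chosen by symbol as transcriptional outputs and feedback inhibitors of the ERK pathway. The cells were AtT-20, derived from a mouse tumour of pituitary corticotropes, the cells that release ACTH. The series title asks about EGF, STAT3 and Pomc transcription; the comparisons below ask how the line carrying EGFR and how EGF changed these 5 genes. The groups were the EGFR line given EGF for 3 h, the EGFR line given EGF for 18 h, the EGFR line given water and a control line, labelled Neo, given water, with 2 libraries in each group. Both water groups are labelled 3 h. All cells were grown in DMEM with fetal bovine serum and antibiotics, so serum was part of the medium in every group. The labels give neither the EGF dose nor the promoter and species of the introduced EGFR, and they do not say whether a line is 1 clone or a pool. No Neo library with EGF and no 18 h water library was analysed here, so the need for the introduced receptor was not tested, and time in culture cannot be told apart from EGF at 18 h.

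EGF bound to its receptor activates RAS, RAF, MEK and then the kinase ERK, which enters the nucleus and phosphorylates transcription factors. Among the genes that ERK signalling induces are its own inhibitors, so that the pathway limits itself. SPRED proteins, relatives of Sprouty, hold back the step from RAS to RAF, and SPRED1 does so together with neurofibromin. DUSP5 is a nuclear phosphatase that inactivates ERK and retains it in the nucleus. ETV5 is an ETS transcription factor of the PEA3 group, a common readout of ERK activity. Plaur encodes the urokinase receptor, a membrane-anchored protein that concentrates plasminogen activation at the cell surface and is induced through ERK and AP-1 in other cells.

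All 5 loci are protein-coding genes whose positions in the tables match GENCODE M21 on mm10 (1-based coordinates below). Etv5 (ENSMUSG00000013089) lies on chromosome 16 from 22381309 to 22439719 on the minus strand, Dusp5 (ENSMUSG00000034765) on chromosome 19 from 53529109 to 53542431, Spred1 (ENSMUSG00000027351) on chromosome 2 from 117121374 to 117182279, Spred2 (ENSMUSG00000045671) on chromosome 11 from 19924375 to 20024026, and Plaur (ENSMUSG00000046223) on chromosome 7 from 24462484 to 24475968, the last 4 on the plus strand. Each value covers the whole locus, so the 5 annotated transcripts of Etv5 or the 6 of Plaur were not separated. A stretch of 1700 bases, 42.8% of the longest coding transcript of Etv5, is 98.6% identical to the processed pseudogene Gm4798 on chromosome 10, and 547 bases, 22.1% of the Dusp5 transcript, are overlapped by an antisense gene. Neither of those 2 loci has a value in the tables, strandedness is not given, and how reads were shared in these stretches was not tested.

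RefSeq promoter windows (GRCm38.p6, 250 bases before to 50 after a transcription start) were found for 5 of the 5 genes, with 2 starts for Etv5, and are shown for the 3 genes with a motif match upstream of the first exon. They were searched on both strands for the CArG box bound by serum response factor, the AP-1 site TGANTCA and the ETS site AGGAAG. The cAMP response element TGACGTCA and the Capicua octamers TGAATGAA and TGAATGGA were searched as well. Only the exact letters AGGAAG counted as an ETS site, so other sequences with GGAA were not marked. Capitals mark the matches, and the stretches stop before the annotated exons of the gene. The motifs were chosen with the sequences in view, and a match is a description of the letters only.
Dusp5, chr19:53528895-53529108, plus strand: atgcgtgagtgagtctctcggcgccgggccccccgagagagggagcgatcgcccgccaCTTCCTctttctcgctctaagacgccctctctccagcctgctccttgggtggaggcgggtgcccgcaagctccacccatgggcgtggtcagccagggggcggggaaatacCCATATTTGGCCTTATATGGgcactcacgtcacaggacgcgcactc
Plaur, chr7:24462233-24462483, plus strand: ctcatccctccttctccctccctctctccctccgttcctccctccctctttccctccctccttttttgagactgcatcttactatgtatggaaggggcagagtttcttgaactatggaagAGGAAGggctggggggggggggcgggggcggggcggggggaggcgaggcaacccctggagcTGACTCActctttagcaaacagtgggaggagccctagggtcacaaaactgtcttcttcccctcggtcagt
Spred2, chr11:19924192-19924374, plus strand: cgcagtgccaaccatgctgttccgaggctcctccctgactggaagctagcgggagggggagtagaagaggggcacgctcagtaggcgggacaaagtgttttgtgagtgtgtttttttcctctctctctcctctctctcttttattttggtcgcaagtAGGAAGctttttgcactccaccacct
The Dusp5 window held 2 CArG boxes side by side, 82 to 73 and 72 to 63 bases before the start. At least 1 CArG box occurred in 1.63% of the 32851 mouse windows of the same length, and 2 or more in 0.0183% (6 windows). The Plaur window held 1 AP-1 site, 69 to 63 bases before the start, a motif present in 7.81% of windows. ETS sites with the letters AGGAAG were common, with at least 1 in 35.4% of windows. They occurred at 1 place in the Dusp5 window, at 2 in the Spred2 window and at 2 in the Plaur window. The second of the Spred2 and Plaur matches lies past the end of the printed stretch. The outer Etv5 start and the Spred1 start had no match to any of the 5 motifs as defined here. The inner Etv5 start had 1 AGGAAG match just after it. Cyclic AMP response elements (1.79% of windows) and Capicua octamers (2.47%) had 0 matches in the 6 windows. Only the exact Capicua octamers named above counted. Near matches, such as TGAATGGG in the window of the inner Etv5 start, were not searched, so Capicua sites with other letters are not excluded.

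**Figure D1:**
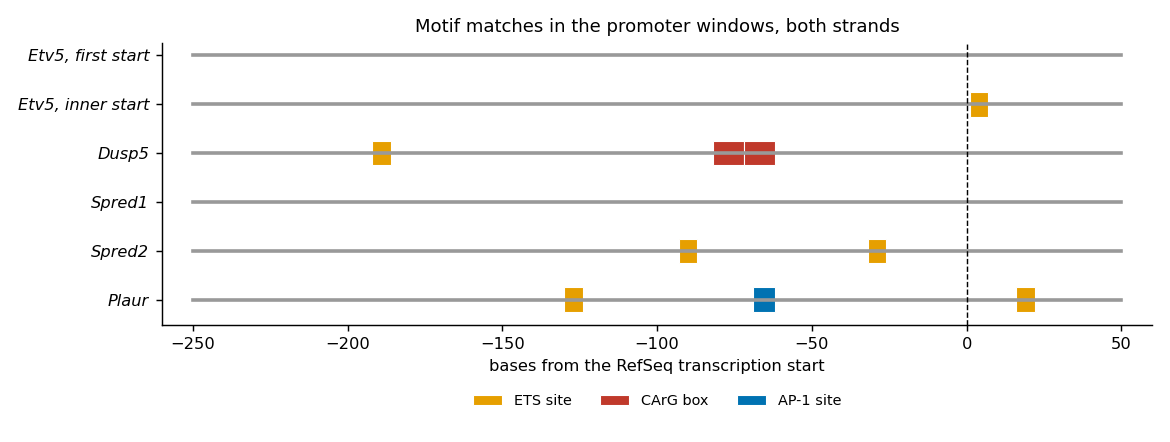
Position of motif matches (coloured blocks) in the RefSeq promoter windows of the 5 genes, in bases from the transcription start on the x axis, with 1 row for each start. The Dusp5 row carries 2 adjoining CArG boxes and the Plaur row an AP-1 site. ETS sites (AGGAAG only) are spread over 4 of the 6 rows.

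The spacing of the lowest FPKM values of single-transcript genes put the depth roughly at 55400000 to 63800000 fragments per library. At that depth Plaur, the shortest transcript, rested on about 97 to 566 fragments per library and Spred1 on about 636 to 2046, so the water values of Plaur are the least precise. Replicates correlated at r = 0.985 to 0.987 across genes on the log2 scale. Egfr stood at 25.9 to 31.9 FPKM in the 6 EGFR libraries and at 0.066 to 0.227 FPKM in the 2 Neo libraries. Small RNA genes held 29.2 to 32.9% of summed FPKM in the EGFR libraries and 39.0 and 33.3% in the Neo libraries. Of the 6 corticotrope markers listed, Pomc, Tbx19, Neurod1, Pitx1 and Pcsk1 had values, with summed FPKM of 8744 and 8817 in EGFR water, 7443 and 7909 after 3 h of EGF, 8001 and 8398 after 18 h, and 9316 and 9441 in Neo water. Most of this sum is Pomc, which was not called at 3 h (−0.20, adjusted p = 0.0531) or 18 h (−0.12, adjusted p = 0.206), while Tbx19 (0.28, adjusted p = 0.00482) and Pcsk1 (0.16, adjusted p = 0.0158) were higher at 18 h and Pcsk1 was lower at 3 h (−0.12, adjusted p = 0.0387), all against EGFR water on the log2 scale by limma-trend. Between 18 h and 3 h Tbx19 (0.38, adjusted p = 0.00194) and Pcsk1 (0.28, adjusted p = 0.00202) were higher by the same test. Neurod1 was lower at 18 h than at 3 h (−0.19, adjusted p = 0.013). It was also lower in EGFR water than in Neo water (−0.24, adjusted p = 0.0256). The part of these markers in the results below was not tested, and in bulk RNA fewer cells of a type cannot be told apart from less RNA per cell. Of 8 markers of other pituitary lineages and 10 of fibroblasts, endothelium and blood, 0 had values. How loci were selected is not stated, so a missing value is not a measured absence.

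In the EGFR line all 5 genes were higher with EGF at both times, and between 3 h and 18 h their levels moved in different directions. Levels are FPKM, fragments scaled to gene length and to the mapped fragments of the library. Differences are log2 fold changes on the log2(FPKM + 1) scale, which understates low genes, with the limma-trend standard error (SE) and the Benjamini-Hochberg adjusted p over the 10874 genes tested. A gene was called at an adjusted p below 0.05. Whether the 2 libraries of a group came from separate cultures is not stated, so the spread behind each p-value may be technical. The 3 h and 18 h comparisons share the same EGFR water libraries.

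Etv5, the ETS factor, had the strongest response of the 5. It stood at 9.72 and 10.0 FPKM in the EGFR water libraries, at 46.7 and 47.8 FPKM after 3 h of EGF and at 71.7 and 69.6 FPKM after 18 h, against 10.0 and 9.60 FPKM in the Neo water libraries. No EGF library overlapped a water library, and the 18 h libraries lay above the 3 h libraries. After 3 h Etv5 averaged 47.3 ± 0.824 FPKM with EGF and 9.86 ± 0.195 FPKM with water (SD, n = 2 each), a ratio of 4.79 and a log2 fold change of 2.15 (SE 0.04, adjusted p = 2.67e-07), the rank of 12 among the tested genes ordered from the highest. After 18 h it averaged 70.6 ± 1.49 FPKM, 7.16 times the water mean, a log2 fold change of 2.72 (SE 0.04, adjusted p = 4.85e-08) and the rank of 10.

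Dusp5, the nuclear ERK phosphatase, was the most abundant of the 5 in every library. Its values were 29.04 and 28.02 FPKM in EGFR water, 105.9 and 108.8 FPKM after 3 h, 99.3 and 99.6 FPKM after 18 h, and 28.7 and 26.2 FPKM in Neo water. All 4 EGF libraries stood far above all 4 water libraries, with the 18 h libraries just below those of 3 h. With EGF for 3 h the mean was 107 ± 2.10 FPKM, against 28.5 ± 0.721 FPKM in EGFR water (SD, n = 2 each), a log2 fold change of 1.88 (SE 0.05, adjusted p = 1.52e-06). With EGF for 18 h the mean was 99.4 ± 0.194 FPKM, against 28.5 ± 0.721 FPKM in EGFR water (SD, n = 2 each), a log2 fold change of 1.77 (SE 0.05, adjusted p = 1.37e-06). Dusp5 ranked 15 at 3 h and 26 at 18 h among the tested genes.

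Plaur, the urokinase receptor, was low in water and rose at both times. It had 1.46 and 1.14 FPKM in EGFR water, 4.75 and 5.23 FPKM after 3 h, 5.73 and 6.06 FPKM after 18 h, and 1.58 and 1.43 FPKM in Neo water. Means were 4.99 ± 0.343 FPKM after 3 h and 1.30 ± 0.228 FPKM in EGFR water (SD, n = 2 each), a ratio of 3.85 and a log2 fold change of 1.39 (SE 0.08, adjusted p = 1.08e-04). After 18 h the mean of 5.89 ± 0.238 FPKM was 4.54 times that of water (log2 fold change 1.59, SE 0.08, adjusted p = 3.00e-05). On the scale with a pseudocount of 0.1 these log2 fold changes were 1.87 and 2.11.

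The SPRED genes, inhibitors of the step from RAS to RAF, responded less strongly, and their means were highest at different times. Spred1 stood at 1.996 and 2.040 FPKM in EGFR water, at 5.35 and 4.72 FPKM after 3 h, at 3.796 and 3.763 FPKM after 18 h, and at 1.91 and 2.13 FPKM in Neo water. Its highest libraries were those of 3 h, with the 18 h libraries between them and water. The log2 fold change was 1.0 at 3 h (5.03 ± 0.445 FPKM with EGF against 2.02 ± 0.0313 FPKM in EGFR water, SE 0.07, adjusted p = 1.91e-04) and 0.66 at 18 h (3.78 ± 0.0236 FPKM with EGF against 2.02 ± 0.0313 FPKM in EGFR water, SE 0.07, adjusted p = 5.38e-04; SD, n = 2 each).

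Spred2 had 2.88 and 3.06 FPKM in EGFR water, 5.20 and 4.85 FPKM after 3 h, 6.32 and 5.96 FPKM after 18 h, and 4.07 and 3.38 FPKM in Neo water. Its libraries thus ordered from water to 3 h to 18 h without overlap in the EGFR line, and the Neo libraries lay between EGFR water and 3 h. The log2 fold change was 0.60 at 3 h (5.02 ± 0.249 FPKM with EGF against 2.97 ± 0.129 FPKM in EGFR water, SE 0.08, adjusted p = 0.00216) and 0.85 at 18 h (6.14 ± 0.252 FPKM with EGF against 2.97 ± 0.129 FPKM in EGFR water, SE 0.08, adjusted p = 2.96e-04; SD, n = 2 each). Spred2 was the smallest of the 5 responses at 3 h and Spred1 at 18 h.

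**Figure D2:**
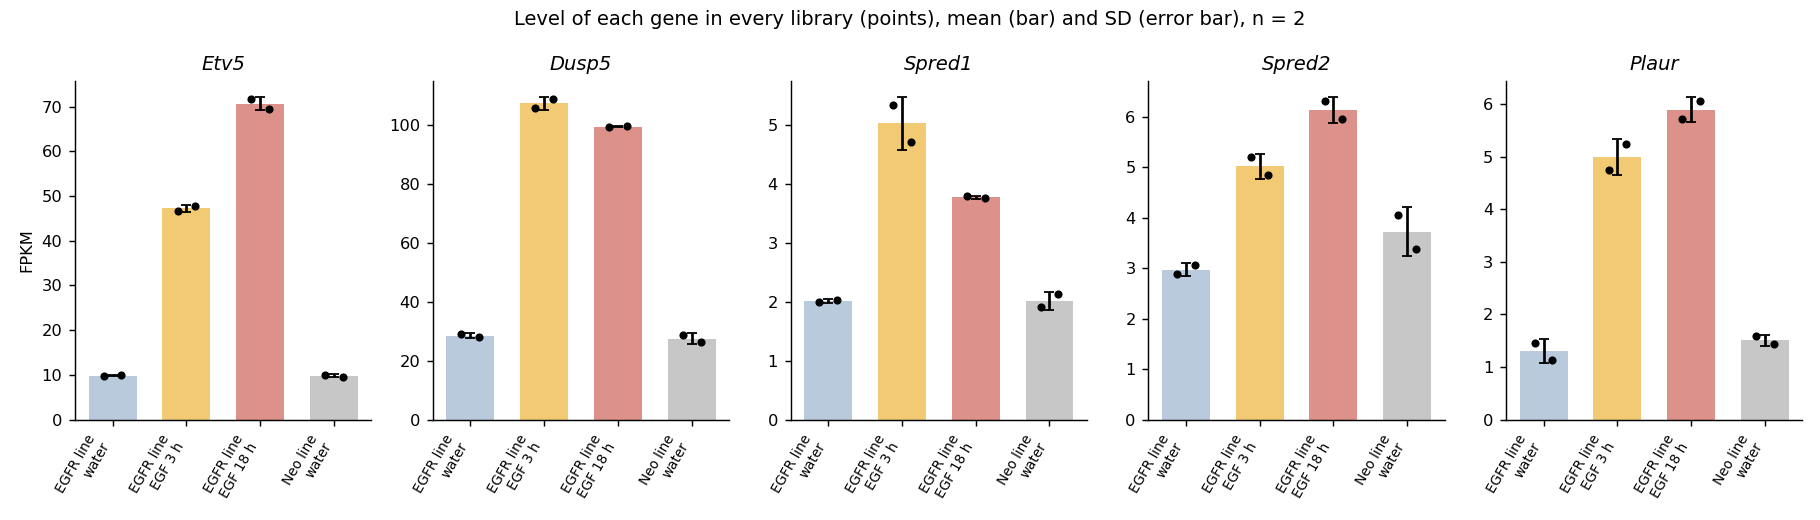
FPKM (y axis, own scale per panel) of the 5 genes in the EGFR line with water, EGF for 3 h and EGF for 18 h, and in the Neo line with water; points are libraries, bars means and error bars SD (n = 2). Etv5, Spred2 and Plaur are highest at 18 h, Dusp5 and Spred1 at 3 h.

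Of the 5 genes, 5 were higher and 0 lower at 3 h, where 11.8% of the 10874 tested genes were higher and 19.7% lower. The split over all genes depends on scaling, with 2064 higher and 1269 lower at 3 h and 2126 higher and 1349 lower at 18 h after rescaling to a common sum without small RNA genes, and 1776 and 1556 at 3 h and 1856 and 1615 at 18 h after median-ratio rescaling, against 1283 and 2142 at 3 h and 1437 and 2030 at 18 h as deposited. At 18 h again 5 were higher and 0 lower, where 13.2% of tested genes were higher and 18.7% lower. The median log2 fold change of the 5 was 1.39 at 3 h, against −0.04 over all tested genes, and 1.59 at 18 h, against −0.03. The genes were chosen with these results known, so the counts describe them and test nothing. Each of these 10 increases kept its call under every alternative fitted, which were 17 for each gene except Spred1 with 16. The range over them was 2.70 to 2.83 for Etv5 at 18 h, the largest of the 10, and 0.56 to 0.74 for Spred2 at 3 h, the smallest.

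**Figure D3:**
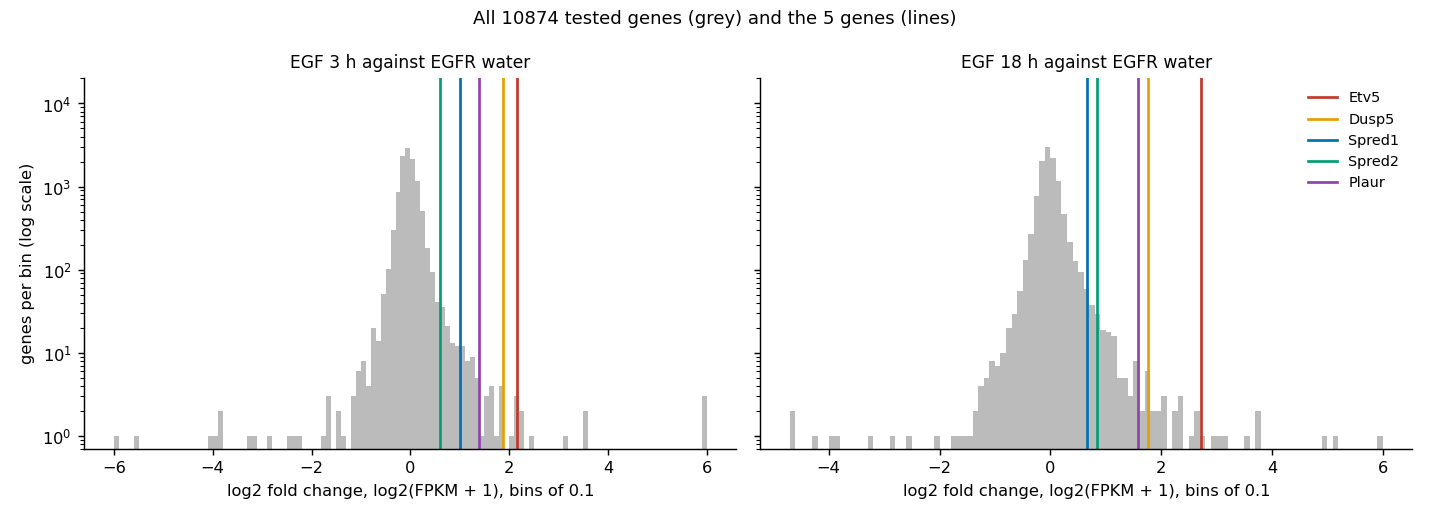
Number of tested genes per bin of log2 fold change (x axis, bins of 0.1; y axis, log scale; values beyond 6 are counted in the end bins) after 3 h and 18 h of EGF against EGFR water, with a line at each of the 5 genes. All 5 lines lie in the upper tail, from 0.60 to 2.15 at 3 h and from 0.66 to 2.72 at 18 h.

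The 18 h and 3 h libraries were compared to ask whether the early response grew, held or declined. Etv5 rose further, with 70.6 ± 1.49 FPKM at 18 h and 47.3 ± 0.824 FPKM at 3 h (SD, n = 2 each; log2 fold change 0.57, SE 0.04, adjusted p = 1.73e-04). Spred1 fell between the times, with 3.78 ± 0.0236 FPKM at 18 h and 5.03 ± 0.445 FPKM at 3 h (log2 fold change −0.33, SE 0.07, adjusted p = 0.0111), and stayed above water. Spred2 was higher at 18 h, with 6.14 ± 0.252 FPKM, than at 3 h, with 5.02 ± 0.249 FPKM (log2 fold change 0.25, SE 0.08, adjusted p = 0.0457). The differences of Dusp5 (−0.11, 95% interval −0.22 to −0.00, adjusted p = 0.106) and Plaur (0.20, 95% interval 0.00 to 0.40, adjusted p = 0.105) did not pass. In all, 2 of the 5 were higher and 1 lower, where 17.7% of tested genes were higher and 16.0% lower.

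As a share of the rise in FPKM over water at 3 h, the rise at 18 h was 162% for Etv5, 155% for Spred2, 124% for Plaur, 90% for Dusp5 and 58.4% for Spred1. The Etv5 call held under all 17 alternatives. The Spred1 call was lost without 3 h library 1 (adjusted p = 0.0546), without 18 h library 1 (0.0509) or without 18 h library 2 (0.0540). The Spred2 call was lost under 10 of 17 alternatives, with adjusted p from 0.0528 to 0.187, among them the removal of any 1 of the 6 EGFR libraries (0.0640 and 0.0643 without EGFR water 1 and 2, 0.0874 and 0.165 without 3 h library 1 and 2, 0.187 and 0.0951 without 18 h library 1 and 2). Dusp5 passed as lower without Neo library 1 (adjusted p = 0.0472) or 2 (0.0470).

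**Figure D4:**
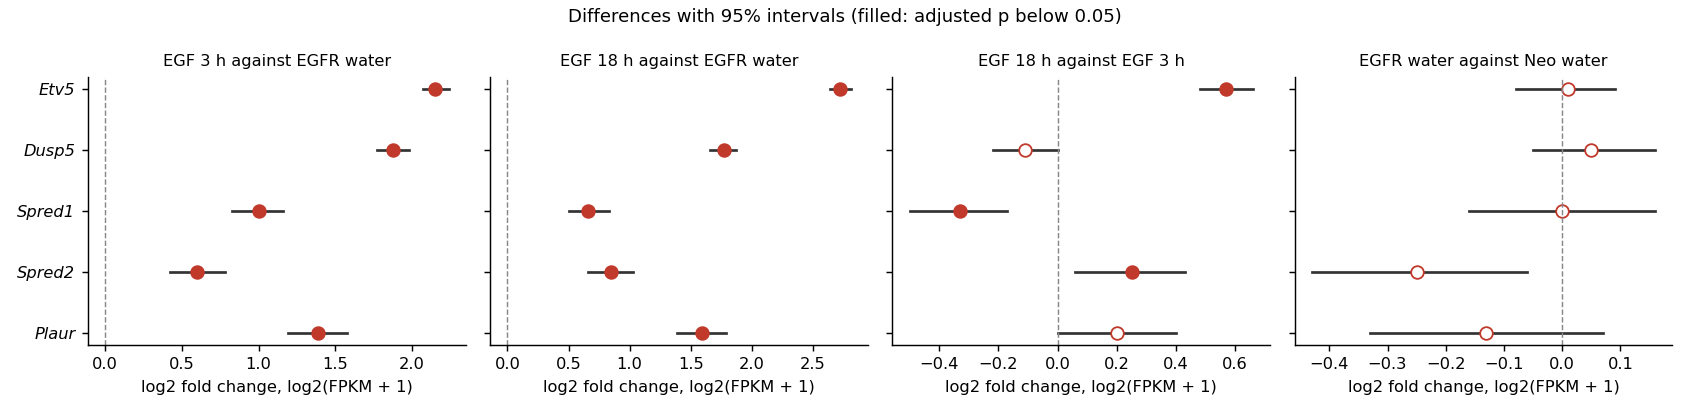
Log2 fold change (x axis, log2(FPKM + 1) scale, own range per panel) of the 5 genes with 95% intervals in the 4 comparisons; filled points passed an adjusted p of 0.05. All 5 points are filled in both comparisons of EGF with water, 3 of 5 between 18 h and 3 h, and 0 of 5 between the lines in water.

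The ratio of Spred2 to Spred1 within a library sets the courses of the SPRED genes side by side. It was 1.44 and 1.5 in EGFR water, 0.972 and 1.03 after 3 h of EGF and 1.66 and 1.58 after 18 h, and 2.13 and 1.59 in Neo water. The 3 h libraries thus lay below all others, near equal levels of both genes, and the 18 h libraries lay above EGFR water. The ratio of Etv5 to Dusp5 was 0.335 and 0.357 in EGFR water, 0.441 and 0.440 after 3 h and 0.722 and 0.699 after 18 h, and 0.349 and 0.366 in Neo water. With 2 libraries a group an exact two-sided permutation test cannot go below p = 0.333. That was its value for each of these ratios in both comparisons of EGF with water and between 18 h and 3 h. The test therefore cannot decide whether the courses differ.

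Without added ligand, the EGFR and Neo lines were set side by side to see whether the receptor line alone altered these genes. Of the 5 genes 0 were higher and 0 lower by limma-trend, where 3.11% of tested genes were higher and 2.90% lower. Etv5 averaged 9.86 ± 0.195 FPKM in EGFR water and 9.82 ± 0.306 FPKM in Neo water, and Spred1 averaged 2.02 ± 0.0313 FPKM in EGFR water and 2.02 ± 0.154 FPKM in Neo water (SD, n = 2 each). The 95% intervals of the log2 fold change were −0.08 to 0.09 for Etv5, −0.05 to 0.16 for Dusp5, −0.16 to 0.16 for Spred1 and −0.33 to 0.07 for Plaur. Only Spred2 of the 5 had lines that did not overlap, with 2.97 ± 0.129 FPKM in EGFR water and 3.73 ± 0.482 FPKM in Neo water. Its log2 fold change was −0.25 (95% interval −0.43 to −0.06, unadjusted p = 0.0148 and adjusted p = 0.106 by limma-trend). How many of all tested genes separate in this way was not counted, so the separation is a description only. Without Neo library 1 the Spred2 difference was −0.14 (adjusted p = 0.326). At an unadjusted p below 0.05 by limma-trend Spred2 was the only one of the 5. The share of all tested genes at that threshold was not counted, so this count is a description only as well.

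Ordered by level, Etv5 ran from 18 h of EGF through 3 h to water, and the water lines did not differ beyond the test's threshold. Dusp5 and Spred1 ran from 3 h through 18 h to water, where the 3 h and 18 h levels of Dusp5 did not differ beyond the test's threshold, and neither did the water lines for either gene. Plaur ran from 18 h through 3 h to Neo water and EGFR water, with no call between 18 h and 3 h or between the water lines. Spred2 ran from 18 h through 3 h and Neo water to EGFR water, and the step from Neo water to 3 h of EGF was not tested.

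The other genes of the pathway were taken from 7 lists of 98 genes, chosen with earlier results of these data known, of which 63 had values and 62 were tested. At 3 h 25 of the 62 were higher and 6 lower, with a median log2 fold change of 0.13, where 11.8% of all tested genes were higher and 19.7% lower, with a median of −0.04. At 18 h 25 were higher and 3 lower, with a median of 0.13, where 13.2% of all tested genes were higher and 18.7% lower, with a median of −0.03. Between 18 h and 3 h 14 were higher and 12 lower, where 17.7% and 16.0% of all tested genes were. The lists below are to be read against these shares. Against this the 5 genes described above had medians of 1.39 and 1.59, and Etv5 lay above every other tested gene of the 7 lists at both times.

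Genes listed with the receptor-level inhibitors and adapters were higher with EGF where they were called against EGFR water. The list includes Ier3, described below, so its counts are not of inhibitors alone. Of 5 tested genes 4 were higher at 3 h and 4 at 18 h, and 0 were lower at either time. Ier3, an ERK-induced stress gene, was at 6.03 ± 0.737 FPKM after 3 h, at 7.60 ± 0.0723 FPKM after 18 h and at 1.64 ± 0.234 FPKM in EGFR water (log2 fold changes 1.41 and 1.71, adjusted p = 1.91e-04 and 3.81e-05). Errfi1, an inhibitor that binds the EGFR kinase domain, rose by 0.60 at 3 h (15.3 ± 0.911 FPKM with EGF against 9.78 ± 0.115 FPKM in EGFR water, adjusted p = 3.26e-04). Sh2b3, the adapter LNK, rose by 0.55 at 3 h and by 0.43 at 18 h (adjusted p = 0.00313 and 0.00648), and Lrig1, a transmembrane protein that promotes loss of EGFR, rose by 0.53 at 18 h (13.4 ± 0.318 FPKM with EGF against 8.94 ± 0.0198 FPKM in EGFR water, adjusted p = 1.09e-04). Sprouty genes and Spred3 were not analysed here.

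Of the other dual-specificity phosphatases, Dusp4 came nearest to Dusp5. It is a nuclear phosphatase of ERK and other MAP kinases and was at 57.4 ± 0.934 FPKM after 3 h and 29.1 ± 1.04 FPKM in EGFR water (log2 fold change 0.96, adjusted p = 1.91e-05). At 18 h it was at 47.2 ± 0.123 FPKM (0.68, adjusted p = 3.90e-05), lower than at 3 h by the test (−0.27, adjusted p = 0.00308). Dusp7, a cytoplasmic ERK phosphatase, rose by 0.36 at 3 h and 0.41 at 18 h (adjusted p = 0.00739 and 0.00322). Of 6 phosphatases tested, 2 were higher and 1 lower at 3 h, and 3 were higher and 0 lower at 18 h. The decrease of Dusp10 at 3 h (−0.17, adjusted p = 0.0235) was lost after both rescalings and without EGFR water 1 or 2 or 3 h library 1 or 2 (adjusted p = 0.0607 to 0.128), and the increase of Dusp8 at 18 h (0.21, adjusted p = 0.0214) without EGFR water 1 or 2 or 18 h library 1 (adjusted p = 0.0591 to 0.127).

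Other tested ETS factors had smaller differences than Etv5. Of 12 tested, 5 were higher and 2 lower at 3 h, and 3 were higher and 3 lower at 18 h, where the shares over all tested genes were 13.2% and 18.7%. Ets1 fell, with 9.55 ± 0.564 FPKM after 3 h and 8.91 ± 0.127 FPKM after 18 h, against 12.4 ± 0.126 FPKM in EGFR water (log2 fold changes −0.35 and −0.44, adjusted p = 0.00205 and 4.60e-04). Elk4, a partner of serum response factor, rose by 0.37 at 3 h (adjusted p = 0.00797, and 0.0513 without EGFR water 2). Etv6, a repressor, rose by 0.35 at 3 h and 0.25 at 18 h (adjusted p = 0.0111 and 0.0323), which was lost at 3 h without EGFR water 2 or 3 h library 1 (0.0559 to 0.0685) and at 18 h under 5 alternatives, among them the removal of EGFR water 1, EGFR water 2 or 18 h library 1 (0.0509 to 0.173). Etv1, of the same PEA3 group as Etv5, stood at 39.98 and 40.14 FPKM after 3 h, below 51.45 and 48.23 FPKM in EGFR water. At 18 h it was lower as well, with 41.8 ± 1.99 FPKM against 49.8 ± 2.28 FPKM in EGFR water (−0.25, adjusted p = 0.0111). Its call was lost without EGFR water 1 or 18 h library 2 (0.0655 and 0.0761).

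Among 12 other tested output genes of ERK, 8 were higher and 1 lower at 3 h, and 7 were higher and 0 lower at 18 h. Vgf, a secreted neuroendocrine peptide precursor, was at 57.3 ± 0.974 FPKM after 3 h, 93.7 ± 1.87 FPKM after 18 h and 29.0 ± 0.547 FPKM in EGFR water (log2 fold changes 0.96 and 1.66, adjusted p = 5.08e-05 and 2.15e-06). Maff, a small MAF transcription factor, was at 10.4 ± 0.386 FPKM after 3 h, 14.1 ± 0.0835 FPKM after 18 h and 4.50 ± 0.202 FPKM in EGFR water (1.06 and 1.46, adjusted p = 5.65e-05 and 6.92e-06). Both grew further between 3 h and 18 h, by 0.70 for Vgf and 0.40 for Maff (adjusted p = 2.03e-04 and 0.00260). Egr2, an early growth response factor, rose by 0.47 and 0.56 (adjusted p = 4.49e-04 and 1.14e-04).

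Genes listed for the plasminogen activator system around the urokinase receptor included Plat, tissue plasminogen activator, and Itgb1, the beta-1 integrin, both with values. Plat was at 10.9 ± 0.338 FPKM after 3 h, 9.92 ± 0.316 FPKM after 18 h and 4.99 ± 0.192 FPKM in EGFR water (log2 fold changes 0.99 and 0.87, adjusted p = 5.08e-05 and 3.81e-05). Itgb1 rose by 0.23 at 18 h (176 ± 2.36 FPKM with EGF against 149 ± 0.975 FPKM in EGFR water, adjusted p = 0.00298). Plau, which encodes urokinase itself, was not analysed here.

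Kinases and adapters carry the signal between receptor and ERK. Of 17 cascade genes 3 were higher and 1 lower at 3 h, where 11.8% and 19.7% of all tested genes were, and 5 were higher and 0 lower at 18 h, where 13.2% and 18.7% were, and of 7 receptors and adapters 1 was higher and 1 lower at 3 h and 1 higher and 0 lower at 18 h. Rps6ka2, an RSK kinase that ERK activates, rose by 0.41 at 3 h and 0.39 at 18 h (adjusted p = 7.60e-04 and 5.72e-04), and Rps6ka3, another RSK kinase, by 0.37 at 3 h (adjusted p = 0.00364). Nf1, the neurofibromin partner of SPRED1, rose by 0.26 at 3 h and 0.42 at 18 h (adjusted p = 0.0151 and 0.00179), and its 3 h call was lost without EGFR water 1, EGFR water 2 or 3 h library 1 (0.0608 to 0.0819). Mknk1 rose by 0.29 at 18 h (adjusted p = 0.0175), a call lost without EGFR water 1 or 2 or 18 h library 1 (0.0646 to 0.101). Erbb3, a receptor that pairs with EGFR, fell to 3.48 ± 0.0598 FPKM after 3 h, against 5.57 ± 0.0332 FPKM in EGFR water (−0.55, adjusted p = 3.80e-04), and Shc1, an adapter, rose to 40.1 ± 0.412 FPKM after 18 h, against 28.9 ± 0.161 FPKM (0.46, adjusted p = 1.21e-04). Ptpn11, the phosphatase SHP2, rose by 0.14 at 3 h (adjusted p = 0.0191), which was lost without any 1 of EGFR water 1 or 2 or 3 h library 1 or 2 (0.0549 to 0.118).

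Between 18 h and 3 h the pathway genes moved both ways. Shc1 (0.47, adjusted p = 2.34e-04) and Erbb3 (0.45, adjusted p = 9.04e-04) were higher at 18 h, as were Dusp8 (0.32, adjusted p = 0.00436), Phlda3 (0.29, adjusted p = 0.00211) and Lrig1 (0.27, adjusted p = 0.00301), given as log2 fold changes. Dusp10 (0.22), Itgb1 (0.19) and Hras (0.20) were higher and Errfi1 (−0.19), Rps6ka3 (−0.19), Ets2 (−0.17), Erf (−0.13) and Elk4 (−0.21) lower, with adjusted p of 0.00845 to 0.0472. Each of these 8 calls was lost under at least 1 alternative, with adjusted p of 0.0511 to 0.212. Leaving out 18 h library 1 ended the calls of Dusp10, Elk4, Erf, Ets2, Hras and Rps6ka3 (0.0626 to 0.0756), and leaving out 18 h library 2 those of Errfi1 and Itgb1 and of 5 of the same genes (0.0545 to 0.212). Leaving out a 3 h library ended 5 of them, Elk4, Erf, Errfi1, Hras and Rps6ka3 (0.0619 to 0.212), an EGFR water library those of Elk4 and Hras (0.0544 to 0.0679), and a Neo library that of Elk4 (0.0602 and 0.0608).

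Between the lines in water 3.11% of all tested genes were higher and 2.90% lower. Of the 62 pathway genes 1, Egfr, was higher and 7 were lower. Among the lower genes were Grb2 (−0.44), Mapk3 (−0.40), Map2k1 (−0.23), Errfi1 (−0.33), Maff (−0.39) and Vgf (−0.25), given as log2 fold changes with adjusted p of 0.0126 to 0.0423. Each of these 6 calls was lost without Neo library 1, EGFR water 1 or EGFR water 2, with adjusted p between 0.0572 and 0.179, and those of Grb2 and Map2k1 also without Neo library 2 (0.0620 and 0.0567).

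**Figure D5:**
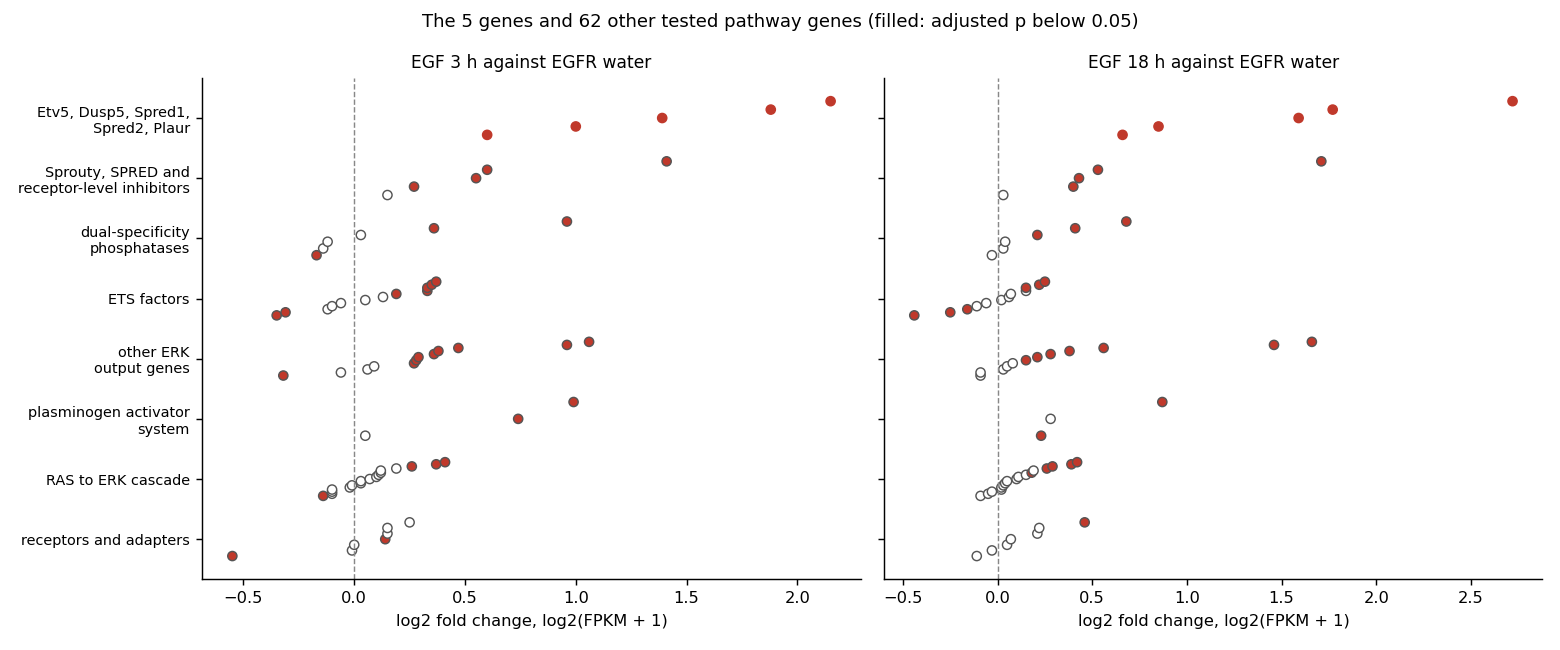
Log2 fold change (x axis, log2(FPKM + 1) scale) after 3 h and 18 h of EGF against EGFR water for Etv5, Dusp5, Spred1, Spred2 and Plaur (top row) and for 62 other tested genes in 7 pathway lists, 1 point per gene; filled points passed an adjusted p of 0.05. The receptor and cascade lists cluster around 0, and the top row reaches 2.15 at 3 h and 2.72 at 18 h.

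For each of the 5 genes the 3 nearest profiles were sought among 8045 tested genes with a mean FPKM of at least 5, by the root mean square difference of log2(FPKM + 1), centred on each gene's mean, over the 8 libraries. Nearest to Etv5 were Cdkn2b (0.112), Gprc5c (0.227) and Stc1 (0.271), and nearest to Dusp5 were Enc1 (0.081), Synj2 (0.182) and Gprc5c (0.207). The nearest to Spred1 were Dusp4 (0.075), Tnfrsf12a (0.076) and Plat (0.120). Tnfrsf12a, the TWEAK receptor, had 56.9 ± 0.517 FPKM at 3 h, 44.65 ± 0.819 FPKM at 18 h and 28.1 ± 1.22 FPKM in EGFR water. The nearest to Spred2 were Bag3 (0.074), Pea15a (0.075) and Golph3 (0.078), and the nearest to Plaur were Plk2 (0.106), Synj2 (0.133) and Bcl2l1 (0.148). Among the 5 themselves the closest pair was Dusp5 and Plaur (0.253) and the most distant Etv5 and Spred2 (0.933), while Spred1 and Spred2 stood 0.264 apart. These distances describe the profiles and carry no test; with a pseudocount of 0.1 the number of the 3 neighbours kept was 3 for Etv5, 2 for Dusp5 and Plaur and 1 for Spred1 and Spred2.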

How the data were processed

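The authors deposited 1 table per library with FPKM for each gene locus, a level scaled to gene length and library size. Per the submitters' processing notes, Trimmomatic 0.22, TopHat2 2.0.8, HTSeq 0.5.4, DESeq and mm10 were used; these notes do not say which program made the FPKM or how loci were selected. Per the labels' protocols, total RNA was purified on columns and copied with Superscript III before Illumina sequencing. The approximate depth was 55400000 to 63800000 fragments per library, from 138 to 156 low genes each, with a weak fit (step score 0.310 to 0.414), so no count model was run.

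The main test was limma-trend on log2(FPKM + 1) over the 10874 loci that reached an FPKM of 1 in 2 or more libraries. All 4 groups shared 1 estimate of the spread, on 4 residual degrees of freedom plus 3.29 from the prior. Each comparison was adjusted by Benjamini-Hochberg on its own, and the fit was tested on simulated data. The 5 genes, the lists, the tests and the motifs were chosen with earlier results of these data known. Named genes were the 5, at most 3 called genes with the largest change from each list and comparison, and the 3 nearest profiles. Some genes that this rule names are not reported here, though the counts include them. Similar transcripts were sought with minimap2 2.31 (95% identity over 200 bases). Alternatives were a pseudocount of 0.1, filters of 0 and 5 FPKM, median-ratio and common-sum rescaling, only the 2 groups fitted, no variance trend, the replicate block, protein-coding genes only and each library left out. R 4.3.3, limma 3.58.1, Python 3.11.15, pandas 2.3.3, NumPy 2.4.6 and matplotlib 3.10.9 were used.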

Additional observations from a re-analysis of the deposited data

How the results depend on the processing

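With 2 libraries per group the precision is limited, and low genes such as Plaur rest on few fragments. All 10 increases of the 5 genes over EGFR water kept direction and call under every alternative fitted; Spred1 could not be tested with the FPKM filter of 5. Between 18 h and 3 h the Spred2 difference was no longer called with a pseudocount of 0.1 (0.29), without a filter (0.25), and after median-ratio or common-sum rescaling (0.24 each), which left 1 of the 5 genes higher, and the filter of 5 left 0 lower; the cause was not tested, except that the filter removes Spred1. Leaving out 1 library gave 0.20 to 0.29 for Spred2, −0.41 to −0.26 for Spred1 and −0.13 to −0.09 for Dusp5, with 1 to 2 of the 5 higher and 0 to 2 lower. A group left with 1 library is then assumed to vary like the others.

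Over all genes, the EGFR water and Neo water comparison had 338 higher and 315 lower, 108 and 129 with only the 2 groups fitted, and 530 higher with protein-coding genes only. Common-sum rescaling gave 2064 higher and 1269 lower at 3 h and 1349 lower at 18 h. Leaving out 1 library gave 22 to 381 higher and 63 to 308 lower between EGFR water and Neo water, 616 to 1297 and 808 to 2299 at 3 h, 847 to 1439 and 927 to 2171 at 18 h, and 1056 to 1896 and 817 to 1749 between 18 h and 3 h. The replicate block gave 183 higher and 199 lower between EGFR water and Neo water and changed no call of the 5 genes; it ended those of Grb2 and Vgf between EGFR water and Neo water (adjusted p = 0.0652 and 0.0545 by limma-trend) and of Etv6 at 18 h (0.0509). Same-numbered libraries deviated together with r of −0.172 to 0.001, so the numbers are not taken to pair them. Of 63 results for other named genes, 26 lost their call under at least 1 alternative.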
